A study of Homo sapiens with 12 samples.

Results

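DHX9 knockdown was compared with culture in DMSO in the Ewing sarcoma line TC-71. The comparison set the 3 libraries of cells transfected with an siRNA against DHX9, called siDHX9 here and collected at 48 hours, against the 3 libraries of unedited cells kept for 16 hours in DMSO, the solvent control of the drug arm. These are 6 of the 12 libraries of the series, and every row with a gene symbol was taken, 25787 of 78885 rows, of which 14225 reached a mean of 10 normalised read counts over the 12 libraries and were tested. The siRNA went in by a repeated reverse transfection with Lipofectamine RNAiMAX. The remaining libraries are 3 of cells transfected with a scrambled control and collected at 48 hours, and 3 of cells given the small molecule YK-4-279 for 16 hours. Every group is the same line, labelled wild type apart from the knockdown, and the labels name 3 biological replicates in each group without saying how they were grown, so p-values measure the spread among these samples of 1 line. The siRNA, the transfection, the 48 hours and the solvent all separate siDHX9 from DMSO and cannot be told apart within this comparison. The sample titles do not name DMSO for the siDHX9 or scrambled libraries. The scrambled libraries share the transfection and the collection time with siDHX9, so their values stand beside many of the results, though not all. Where they are not given, a difference from DMSO is not set against the matched transfection. The protocol names siRNAs, while the design text of the series names shRNAs.

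DHX9, also called RNA helicase A, unwinds RNA duplexes and hybrids of RNA with DNA and links transcription factors to RNA polymerase II. Ewing sarcoma is driven by fusions of EWSR1 with an ETS factor, most often FLI1. The fusion protein EWS-FLI1 activates a set of genes and represses another, which includes genes of mesenchyme. DHX9 is a binding partner of EWS-FLI1, and YK-4-279 was designed to block that contact.

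Total depth was 38569000 to 65548000 reads in DMSO, 46888000 to 49350000 in siDHX9 and 47770000 to 51041000 in scrambled libraries, where the depths of DMSO 2 and scrambled 3 are estimates. Copies of 1 molecule made by PCR cannot be told apart in these values, so depth bears on counting error only. The siDHX9 libraries differed more among themselves than the DMSO libraries did: the SD over genes of the log2 difference of a library from the mean of the other 2 of its group was 0.36, 0.47 and 0.46 in siDHX9 1, 2 and 3, and 0.34, 0.34 and 0.38 in DMSO 1, 2 and 3. The entry of the 45S ribosomal RNA repeats took 4.95 to 5.44% of reads in DMSO, 3.52 to 5.2% in scrambled libraries and 1.76 to 3.59% in those of siDHX9, and its part in the results was not tested. All 10 markers of Ewing sarcoma cells reached the minimum, with a summed level of 59754 to 61888 in DMSO and 59093 to 67882 in siDHX9 libraries. The keratin KRT5, the epithelial factor GRHL2 and the T cell receptor part CD3E were at 0 in all 12 libraries, but other markers of such cells had signal. Epithelial markers, 4 of them at the minimum, summed to 265 to 326 (DMSO), 385 to 425 (siDHX9) and 410 to 435 (scrambled). Their siDHX9 sums thus lay above DMSO without overlap. Blood markers summed to 29.1 to 50.1 (DMSO), 26.5 to 113 (siDHX9) and 31.4 to 46.9 (scrambled). Endothelial sums were 189 to 290, 137 to 231 and 90.2 to 148 in the same order. Summed markers of fibroblasts and mesenchyme, all 12 with an entry of their own and 9 at the minimum, lay at 3787 to 3993 in DMSO, 4507 to 5205 in scrambled libraries and 5407 to 5989 in those of siDHX9. In a bulk sample, a larger share of cells of a type and more RNA per cell cannot be told apart.

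DHX9 itself was lower in siDHX9 libraries by 40.7%. Its transcript is counted in 1 entry with the neighbouring gene NPL, which encodes an enzyme of sialic acid breakdown, so the value holds reads of both genes. The entry stood at 19342, 21178 and 21304 normalised read counts in siDHX9 1, 2 and 3, at 36422, 34511 and 33239 in DMSO 1, 2 and 3 and at 30287, 33422 and 34357 in scrambled 1, 2 and 3. The siDHX9 values lay below all the others, while DMSO and scrambled overlapped. On the log2 scale, where each difference is between group means of log2(value + 1) and the error is the SE, siDHX9 minus DMSO was −0.75 ± 0.07 (limma, Benjamini-Hochberg adjusted p = 1.70e-05). The scrambled minus DMSO difference was −0.09 ± 0.07 (limma, adjusted p = 0.391). The two-sided exact permutation test of 3 against 3 libraries gave p = 0.1, the smallest it can give.

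**Figure D1:**
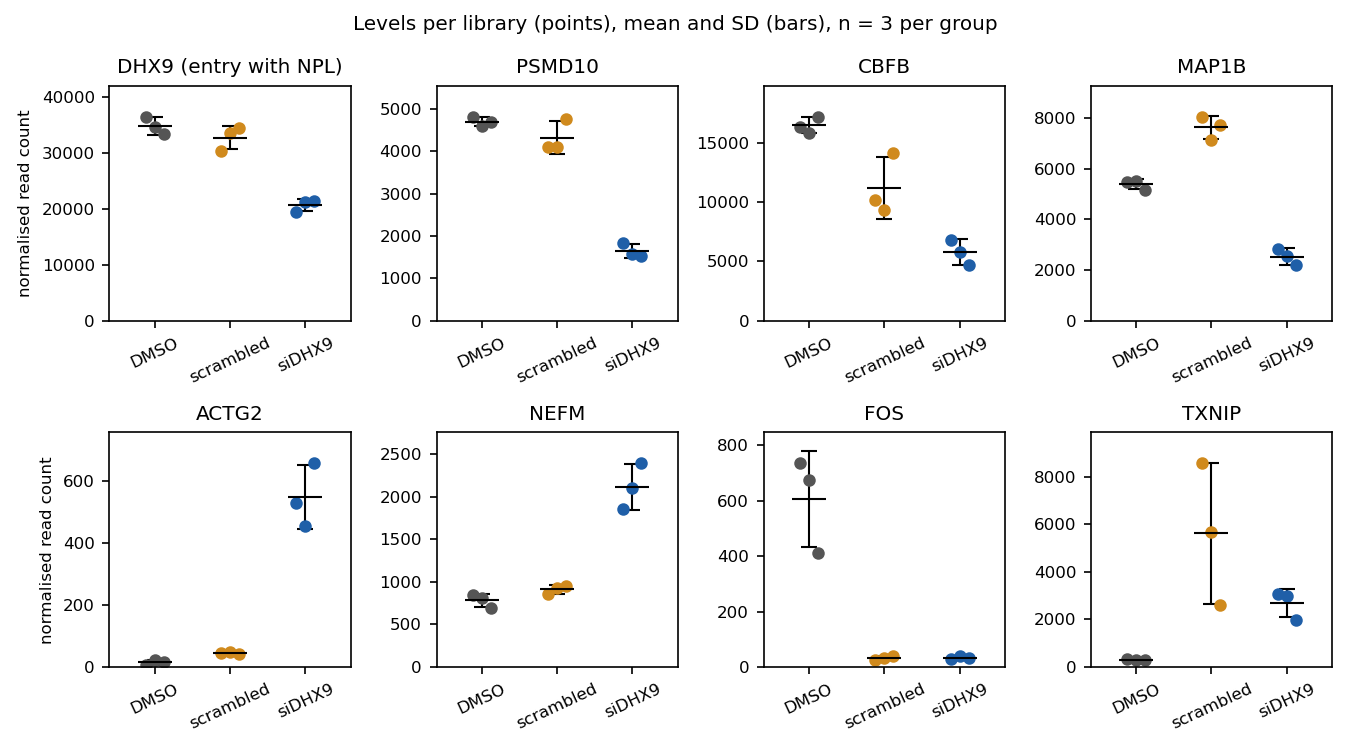
Normalised read counts of 8 genes (vertical axes, from 0) in each DMSO, scrambled and siDHX9 library; points are libraries, the wide bar is the mean and the whiskers the SD of 3. DHX9, PSMD10, CBFB and MAP1B are lowest in siDHX9, ACTG2 and NEFM are highest there, and FOS and TXNIP differ from DMSO in both transfected groups.

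The knockdown libraries differed from DMSO in 2223 of 14225 genes (15.6%) at an adjusted p under 0.05 in limma, which is the meaning of "rose" and "fell" below. Of these, 1180 rose (8.3%) and 1043 fell (7.33%), and 214 and 143 of them did so by at least 1 on the log2 scale. With TMM scaling more genes fell than rose, 1179 against 1077. The median log2 difference over all genes was 0.02. In 4950 genes (34.8%) the 3 siDHX9 libraries did not overlap the 3 DMSO libraries, 2603 (18.3%) with siDHX9 above and 2347 (16.5%) with siDHX9 below. The scrambled libraries differed from the same DMSO libraries in 2692 genes (18.9%), 1380 higher (9.7%) and 1312 lower (9.22%), and siDHX9 differed from scrambled in 2378 (16.7%), 1244 higher (8.75%) and 1134 lower (7.97%). These comparisons share libraries, so their counts are set side by side only. Counts of each gene list below are to be read against these shares of all genes in the same comparison. The lists were chosen with earlier results of these data known, so their distance from these shares is a description and not a test. Leaving out 1 library moved the count against DMSO to between 1231 (without DMSO 1) and 3300 (without siDHX9 2), with 1256 without DMSO 2, 1334 without DMSO 3 and 1452 without siDHX9 1. edgeR's quasi-likelihood test and DESeq2, run on the 8 libraries whose whole reads were accepted, called 639 and 1052 genes against DMSO. DMSO 2 and scrambled 3 were left out of both tests. The numbers of genes that rose and fell by edgeR and by DESeq2 are given in that order beside the counts of most gene lists. The count against scrambled was 4255 without siDHX9 2 and between 1244 and 1410 without siDHX9 1, siDHX9 3, scrambled 1 or scrambled 2, and that of scrambled minus DMSO between 1431 and 1597 without DMSO 2, DMSO 3, scrambled 1 or scrambled 2.

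**Figure D2:**
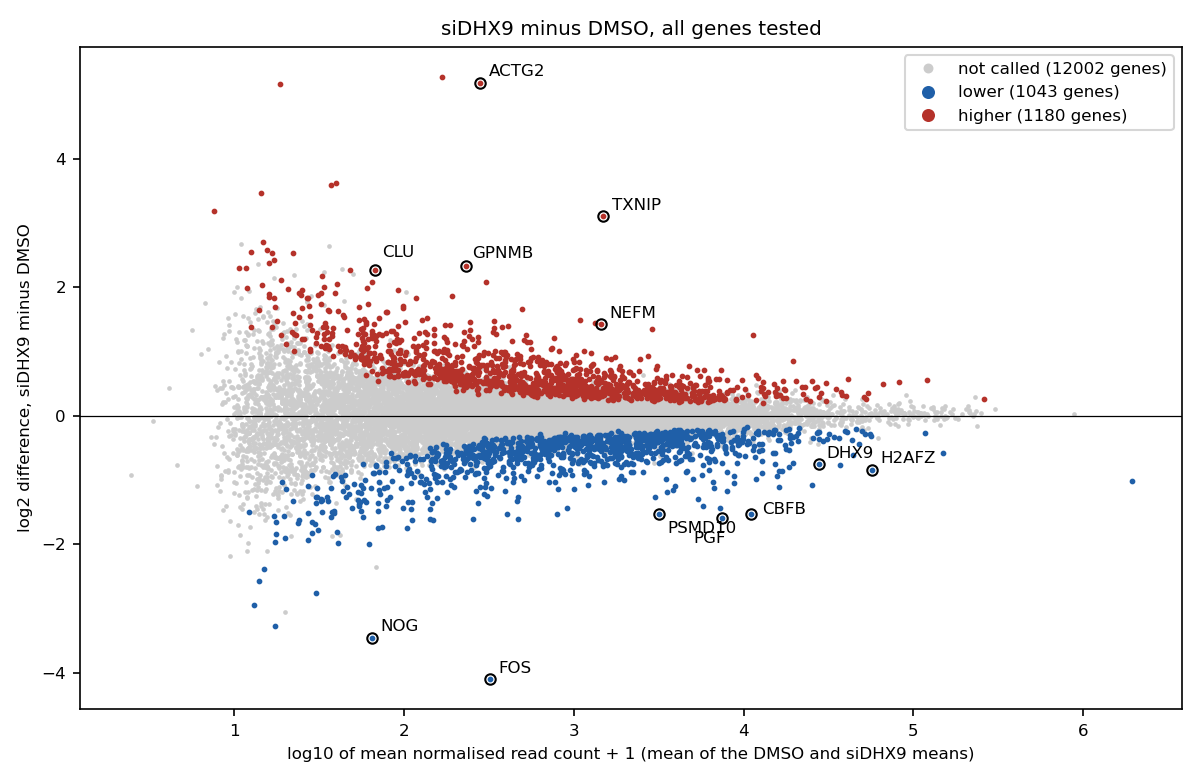
Log2 difference of siDHX9 minus DMSO (vertical axis) against log10 of the mean normalised read count + 1 (horizontal axis) for the 14225 genes tested, 1 point each. Red points are the 1180 genes that rose, blue points the 1043 that fell, and circles with names mark examples from the text.

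A first group of genes differed from both controls. Among the genes that fell, PSMD10, which encodes gankyrin, a chaperone of the proteasome cap, headed those that fell against both. PSMD10 stood at 1827, 1566 and 1514 in siDHX9, 4820.4, 4597 and 4684 in DMSO and 4112, 4096 and 4769 in scrambled libraries. That is −1.53 ± 0.09 against DMSO (limma, adjusted p = 5.10e-07) and −1.40 ± 0.09 against scrambled (limma, adjusted p = 3.52e-07), and the 2 controls lay near each other at −0.12 (limma, adjusted p = 0.343). Of the 41 proteasome genes tested, PSMD10 and PSMD14, a deubiquitinase of the cap (−0.28, not called without DMSO 1 or siDHX9 1), were the 2 that fell and 0 rose (1 fell without DMSO 1 or siDHX9 1, and 2 rose and 3 fell without siDHX9 2). Those 2 are 4.88% of the list, against 7.33% of all genes (edgeR 0 and 2, DESeq2 0 and 1).

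MAP1B, which binds microtubules in growing axons, fell from 5489.6, 5514 and 5153 in DMSO to 2839, 2556 and 2192 in siDHX9 libraries (−1.10 ± 0.09, limma, adjusted p = 6.62e-06). In scrambled libraries it was the other way, at 8061, 7146 and 7709, above all DMSO values. The symbol MAP1B stands on more than 1 entry, and these values are of 1 of them. PTPRG, a receptor tyrosine phosphatase whose gene overlaps its antisense PTPRG-AS1, stood at 226, 185 and 172 in DMSO, 191, 233 and 175 in scrambled and 73.5, 111 and 79.98 in siDHX9 libraries (−1.15 and −1.18 against the 2 controls). Its DMSO and scrambled values overlapped and all siDHX9 values lay lower. IGDCC4, a surface protein of the immunoglobulin superfamily (−1.13), and HLTF, a DNA translocase of replication fork repair (−1.12), fell as well, with weaker support: the limma adjusted p of IGDCC4 went from 0.0257 to between 0.0781 and 0.0873 without DMSO 1, DMSO 3 or siDHX9 3, and that of HLTF from 0.0392 to between 0.0532 and 0.128 without DMSO 1, DMSO 2, siDHX9 1, siDHX9 3 or scrambled 1.

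Among the genes that rose against both controls, ACTG2, the gamma actin of visceral smooth muscle, went furthest. It stood at 6.71, 22.8 and 16.7 in DMSO, 46.0, 49.0 and 41.9 in scrambled and 529, 453 and 656 in siDHX9 libraries, a log2 difference of 5.19 ± 0.34 against DMSO (limma, adjusted p = 8.43e-07) and 3.54 ± 0.34 against scrambled (limma, adjusted p = 2.25e-05). The lowest siDHX9 value was far above the highest value of either control. OLFML3, a secreted matrix glycoprotein, rose 2.72-fold against DMSO, from 640.1, 713 and 801 to 2047, 1752 and 2063 (1.45 ± 0.10, limma, adjusted p = 1.80e-06), with 572, 562 and 582 in scrambled libraries. CHRNB2, the beta2 subunit of neuronal nicotinic acetylcholine receptors, rose from 50.7, 51.6 and 46.2 to 197, 132 and 223 (1.84), and scrambled libraries stood lower than DMSO at 10.8, 16.6 and 19.9. TMEM145, a transmembrane protein, had the same order of groups, with 18.9, 20.3 and 18.9 in scrambled, 58.9, 61.6 and 79.6 in DMSO and 190.4, 189 and 184 in siDHX9 libraries (1.49 against DMSO). DISP2, a relative of the hedgehog release factor Dispatched, stood at 70.9, 93.3 and 75.8 in DMSO, 52.3, 61.0 and 114 in scrambled and 308, 219 and 374 in siDHX9 libraries (1.87 and 2.02 against the 2 controls).

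Several of the largest differences from DMSO differed from scrambled by less. GPNMB, a glycoprotein of lysosomes and melanosomes, rose from 74.6, 74.5 and 77.0 in DMSO to 347, 413 and 389 in siDHX9 libraries (2.33 ± 0.15, limma, adjusted p = 8.43e-07), with 119, 152 and 154 in scrambled between the other groups. REP15, an effector of the vesicle GTPase RAB15, went from 48.5, 52.6 and 34.7 to 147, 175 and 126 (1.71), and scrambled libraries held 62.2, 59.2 and 47.9. CBFB, the partner of RUNX transcription factors, fell from 16350, 15829 and 17188 in DMSO to 6816, 5816 and 4678 in siDHX9 libraries (−1.53 ± 0.14, limma, adjusted p = 2.08e-05). Scrambled libraries held 10139, 9285 and 14141 CBFB counts, below all DMSO and above all siDHX9 values, so CBFB fell in both transfected groups and further with siDHX9 (−0.95 against scrambled, limma, adjusted p = 0.000941).

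The 5 genes whose level most resembled that of DHX9 over the 12 libraries were HEATR1, H2AFZ, PRR14L, CPSF3 and ANAPC7, with Pearson r of 0.977, 0.977, 0.976, 0.97 and 0.967. Among them H2AFZ, the histone variant H2A.Z, was at 75146, 72261 and 71871 in DMSO, 67449, 62441 and 75100 in scrambled and 40254, 40075 and 42271 in siDHX9 libraries (−0.84 ± 0.07, limma, adjusted p = 6.62e-06). CPSF3, the nuclease that cuts pre-mRNA before polyadenylation, was at 7406, 7748 and 7332 in DMSO, 7728, 8052 and 8139 in scrambled and 3816, 4117 and 3910.2 in siDHX9 libraries (−0.92 ± 0.06, limma, adjusted p = 1.17e-06), although its gene overlaps ITGB1BP1. In both genes DMSO and scrambled overlapped and siDHX9 lay apart. PRR14L, a protein of the spindle midbody, differed from DMSO by −0.67, HEATR1, a factor of ribosomal RNA synthesis that overlaps LGALS8, by −0.51, and ANAPC7, a subunit of the anaphase-promoting complex, by −0.49 on the log2 scale. These r values describe 12 libraries that fall into 4 groups, with siDHX9 the low one. Of 49 other DEAD- and DEAH-box helicases, 0 rose and 5 fell (edgeR 0 and 1, DESeq2 0 and 1), which is 10.2% against 7.33% of all genes, with a median log2 difference of −0.06 (0.02 over all genes). That median was −0.029 without DMSO 1, −0.033 without siDHX9 1 and −0.095 without siDHX9 2. Of the same helicases, scrambled minus DMSO had 2 higher and 1 lower (median 0.02), and siDHX9 minus scrambled 1 higher and 7 lower (median −0.10). DHX15, a splicing helicase, went from 11671, 11203 and 10608 to 8241, 9564 and 8353 (−0.36, not called by edgeR or DESeq2). The count of helicases that fell was 2 without DMSO 1 or siDHX9 1, 3 without DMSO 2, DMSO 3 or siDHX9 3 and 8 without siDHX9 2.

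A further group of genes stood at like levels in siDHX9 and scrambled libraries, both apart from DMSO. FOS, the immediate early partner of JUN, stood at 735, 673 and 409.6 in DMSO, 29.0, 39.3 and 32.4 in siDHX9 and 27.1, 32.4 and 40.9 in scrambled libraries. Its log2 difference was −4.10 ± 0.21 against DMSO (limma, adjusted p = 2.70e-07) and 0.01 ± 0.21 against scrambled (limma, adjusted p = 0.971). FGFR3, a fibroblast growth factor receptor, fell from 609, 542 and 633 to 174, 235 and 212 (−1.53), with 233, 197 and 253 in scrambled libraries. RHBDL1, a rhomboid protease (−1.62), PPP1R14C, an inhibitor of protein phosphatase 1 (−1.46), and ZFPM1, a cofactor of GATA factors (−1.34), fell in the same way, and the scrambled minus DMSO differences were −1.80, −1.35 and −1.45.

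On the rising side, IFIT2, an interferon-induced RNA binding protein whose gene overlaps LIPA, stood at 31.3, 41.7 and 41.1 in DMSO, 135, 113 and 102 in scrambled and 112, 113 and 128 in siDHX9 libraries (1.61 against DMSO). PPM1K, the phosphatase that switches on branched-chain amino acid breakdown (1.46), PLA2G3, a secreted phospholipase (1.31), and TMEM169, a transmembrane protein (1.30), rose too, beside scrambled minus DMSO differences of 1.28, 1.195 and 1.12. These genes were chosen for lying within 0.25 log2 of scrambled, so their likeness to scrambled is a description.

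The largest rise after ACTG2 belonged to TXNIP, the thioredoxin inhibitor that limits glucose uptake, which overlaps an entry of NBPF genes. TXNIP stood at 331, 293 and 289 in DMSO, 3068, 2994 and 1993 in siDHX9 and 8565, 5659 and 2627 in scrambled libraries, so both transfected groups were above DMSO (3.11 ± 0.30, limma, adjusted p = 2.72e-05 for siDHX9). CLU, the secreted chaperone clusterin (2.27), GIPR, an incretin receptor (2.09), ZNF792, a zinc finger protein (1.68), and ARG2, mitochondrial arginase (1.66, overlapping VTI1B), also rose, with scrambled minus DMSO differences of 1.42, 1.49, 1.35 and 1.37.

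Among the largest falls, NOG, which encodes the bone morphogenetic protein antagonist noggin, went from 108, 161 and 79.6 in DMSO to 10.3, 3.66 and 19.4 in siDHX9 libraries (−3.45 ± 0.47, limma, adjusted p = 0.000381), and scrambled libraries held 16.2, 7.40 and 16.0. PGF, placental growth factor, fell from 10507, 11506 and 11174 to 3226, 2677 and 5756 (−1.59), with 2093, 2023 and 3876 in scrambled libraries. All transfected values of NOG and PGF lay below all DMSO values. APLN, the vessel growth peptide apelin (−1.75), HRH1, a histamine receptor (−1.75), SUSD2, a surface protein (−1.63), PCDH19, a protocadherin (−1.61), and APC2, a relative of the Wnt regulator APC that overlaps POLRMT (−1.61), fell as well. Their scrambled minus DMSO differences were −1.12, −2.24, −1.23, −1.91 and −1.98, each with a limma adjusted p under the threshold. ID1, a target of bone morphogenetic protein signalling picked after its values were seen, went from 6895, 8279 and 7508 in DMSO to 2945, 2187 and 4546 in siDHX9 and 1823, 1599.8 and 2961 in scrambled libraries (−1.29 for siDHX9).

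**Figure D3:**
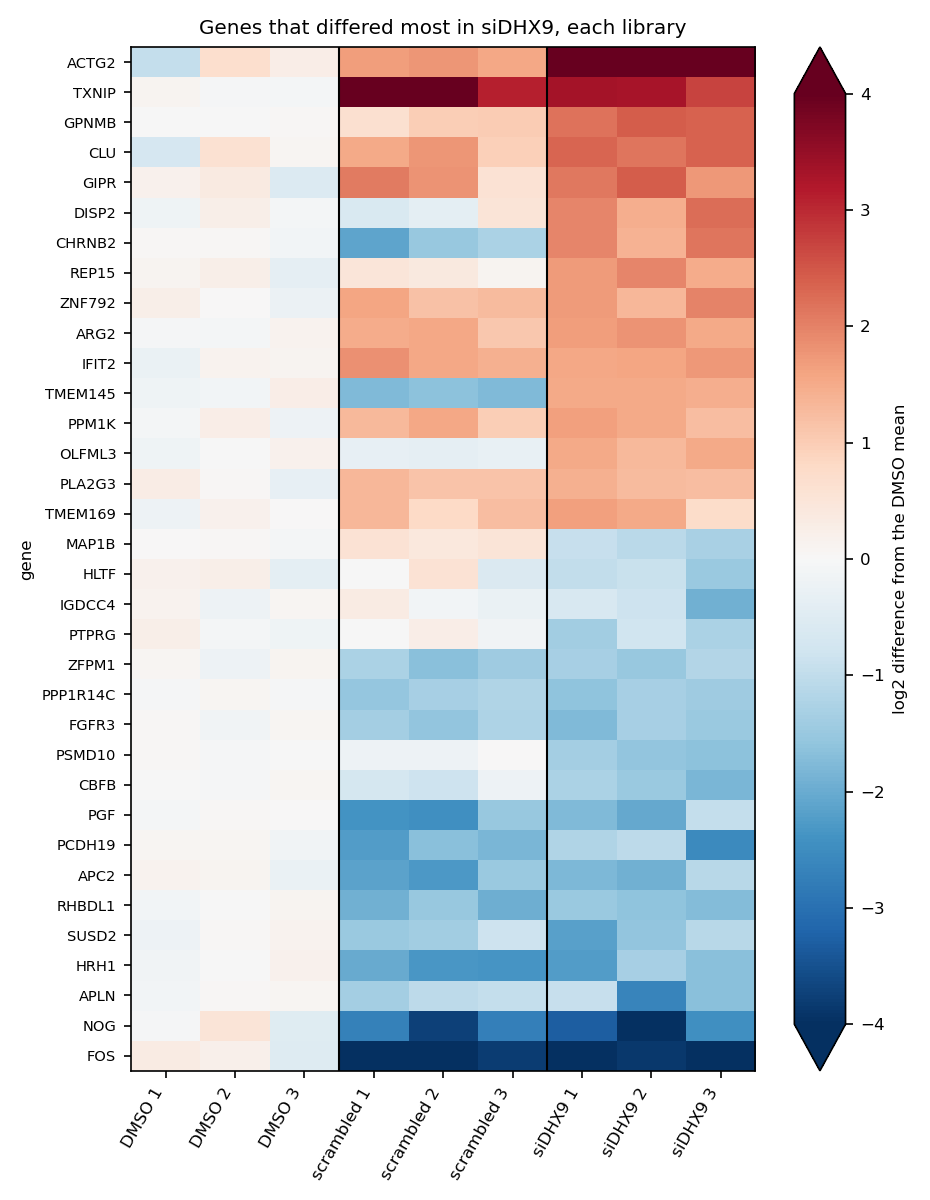
Log2 difference from the DMSO mean (colour, red higher and blue lower, limits −4 and 4) of the genes with the largest differences (rows, ordered by siDHX9 minus DMSO) in each DMSO, scrambled and siDHX9 library (columns). FOS, NOG and FGFR3 are blue in both transfected groups, while CHRNB2 and TMEM145 are red in siDHX9 and blue in scrambled libraries.

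Genes of neurons and neuroendocrine cells that differed in siDHX9 libraries were higher in most cases. Of 30 genes of synaptic vesicles and secretory granules tested, 11 rose (36.7%) and 2 fell (6.67%), against 8.3% and 7.33% of all genes (median log2 difference 0.41, against 0.02 over all genes; edgeR 10 and 0, DESeq2 11 and 0). In scrambled minus DMSO the same list had 4 higher and 13 lower (median −0.61), and in siDHX9 minus scrambled 14 higher and 1 lower (median 0.77). By library, the median over the list of the log2 difference from the DMSO mean was 0.56, 0.39 and 0.37 in siDHX9 1, 2 and 3 and −0.54, −0.45 and −0.44 in scrambled 1, 2 and 3, so the 2 transfected groups lay on opposite sides of DMSO.

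SYP, synaptophysin of the synaptic vesicle membrane, stood at 67.2, 93.3 and 125 in DMSO, 31.6, 30.5 and 29.9 in scrambled and 256, 209 and 282 in siDHX9 libraries (1.41 ± 0.21, limma, adjusted p = 0.000633). NSG2, a neuronal endosome protein, was at 269, 290.0 and 241 in DMSO, 148, 137 and 132 in scrambled and 619, 556 and 625 in siDHX9 libraries (1.17 ± 0.11, limma, adjusted p = 2.66e-05). SCG2, the granule protein secretogranin II, chosen after its values were seen, was at 4437, 4331 and 4350.4 in DMSO, 3248, 3139 and 3263 in scrambled and 6326, 6714 and 7034 in siDHX9 libraries (0.61). In all 3 genes every siDHX9 value lay above DMSO and every scrambled value below it. VGF, a secreted neuropeptide precursor (1.34), rose at a lower level, from 23.9, 39.7 and 28.2 to 76.6, 64.0 and 95.1. SYT11, a synaptotagmin of vesicle traffic (1.08), rose with 41.8, 47.7 and 37.2 in DMSO and 104, 97.9 and 71.3 in siDHX9 libraries, and differed from the others in being as high in scrambled libraries, at 107, 97.1 and 103.

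Of 25 genes of the neuronal cytoskeleton and differentiation, 10 rose and 1, MAP1B, fell (40% and 4%, median 0.34; edgeR 5 and 1, DESeq2 7 and 1). Scrambled minus DMSO had 5 higher and 4 lower (median 0.13) and siDHX9 minus scrambled 11 higher and 1 lower (median 0.2). NEFM, the medium neurofilament chain, rose 2.7-fold, from 841, 816 and 692 in DMSO to 1857, 2102 and 2396 in siDHX9 libraries (1.43 ± 0.11, limma, adjusted p = 2.77e-06), with 857, 928 and 957 in scrambled libraries. GNG4, a G protein gamma subunit of neurons, was at 721, 748 and 794 in DMSO, 473, 368 and 435 in scrambled and 1702, 1282 and 1603 in siDHX9 libraries (1.01). CELF3, a neuronal splicing regulator whose gene overlaps SNX27, went from 22.4, 25.8 and 38.5 to 64.1, 68.6 and 123 (1.502). TUBB3, the neuronal beta tubulin, chosen after its values were seen, was at 12319, 14057 and 14575 in DMSO and 27208, 17236 and 31829 in siDHX9 libraries (0.85), where siDHX9 2 stood well below siDHX9 1 and 3. Without any 1 library, the counts that rose were 9 to 13 vesicle genes and 7 to 11 cytoskeleton genes. The 2 vesicle genes that fell, SLC17A7 and VAMP1, were 0 without DMSO 1, 2 or 3 or siDHX9 1 or 2, and 1 without siDHX9 3.

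Most markers of connective tissue cells and part of the genes of the matrix and the contractile cytoskeleton rose as well. Of the 9 tested markers of fibroblasts and mesenchyme, 8 rose and 0 fell (88.9% and 0%, median 0.84; edgeR 2 and 0, DESeq2 4 and 0). The scrambled minus DMSO values were 4 and 0 (median 0.37), and those of siDHX9 minus scrambled 3 and 0 (median 0.53). The count was 4 without DMSO 1 or siDHX9 1 and 5 without DMSO 2 or siDHX9 2. ACTA2, smooth muscle alpha actin, whose gene overlaps STAMBPL1 and FAS, stood at 201, 211 and 194 in DMSO, 422, 383 and 228 in scrambled and 505, 407 and 575 in siDHX9 libraries (1.28 ± 0.19, limma, adjusted p = 0.000783). THY1, a surface glycoprotein of fibroblasts and neurons that overlaps USP2-AS1, was at 263, 296 and 263 in DMSO, 362, 314 and 349 in scrambled and 529, 472 and 559 in siDHX9 libraries (0.92 ± 0.11, limma, adjusted p = 0.000154). THY1 in siDHX9 lay above every value of both controls. DCN, the collagen-binding proteoglycan decorin, was at 240.2, 275 and 311 in DMSO, 303, 183 and 262 in scrambled and 599, 557 and 376 in siDHX9 libraries (0.87, limma, adjusted p = 0.0127, and 0.0575 to 0.0588 without DMSO 1 or siDHX9 1). COL1A1, the chief collagen of bone and skin, chosen after its values were seen, went from 1333, 1317 and 1308 to 1952, 1559.7 and 2109 (0.49). The summed levels of these markers in each group are those given with the depth, and no DMSO library overlapped a siDHX9 library in that sum, whose part in these results was not tested.

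Of 28 extracellular matrix genes, 10 rose and 1 fell (35.7% and 3.57%, median 0.35; edgeR 3 and 1, DESeq2 6 and 1). In scrambled minus DMSO 9 were higher and 3 lower (median 0.17), and 6 were higher and 3 lower in siDHX9 minus scrambled (median 0.07). TNC, the adhesion modulator tenascin C, went from 257, 238 and 182 in DMSO to 394, 440.0 and 529.6 in siDHX9 libraries (1.01 ± 0.16, limma, adjusted p = 0.00105) and stood at 373, 429 and 383 in scrambled libraries. LAMC1, a laminin chain of basement membranes, went from 516, 423 and 452 to 747, 907 and 853 (0.85), with 701, 878 and 667 in scrambled libraries. COL3A1, a fibrillar collagen (0.84), and COL4A2, a basement membrane collagen (0.99, not called without DMSO 1, DMSO 2, siDHX9 1 or siDHX9 3), rose too. In these matrix genes scrambled and siDHX9 values overlapped. The count of matrix genes that rose was 6 without DMSO 2 or siDHX9 1 and 5 without siDHX9 3.

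Of 23 actin genes and targets of SRF and YAP, the factors that read actin polymerisation and tension, 11 rose and 1 fell (47.8% and 4.35%, median 0.4; edgeR 4 and 0, DESeq2 6 and 0). Scrambled minus DMSO had 7 higher and 1 lower (median 0.29) and siDHX9 minus scrambled 5 higher and 2 lower (median 0.24). ZYX, a focal adhesion protein whose gene overlaps FAM131B, went from 1678, 1728 and 1705 in DMSO to 3349.9, 2558 and 3638 in siDHX9 libraries (0.89 ± 0.12, limma, adjusted p = 0.000327), with 2802, 2741 and 2346 in scrambled libraries. CNN1, smooth muscle calponin, rose at a low level, from 10.4, 3.97 and 7.70 to 22.8, 20.1 and 32.4 (1.69, limma, adjusted p = 0.0443, and 0.0531 to 0.152 without DMSO 1, 2 or 3, siDHX9 1 or 3 or scrambled 1). The count of those that rose was 7 without DMSO 1 or siDHX9 1.

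The parts of the fusion and its target genes gave a mixed picture. EWSR1, which overlaps RHBDD3 and whose entry holds reads of the intact gene and possibly of the fusion, was at 23442, 23608 and 22806 in DMSO and 19795, 19588 and 24174 in siDHX9 libraries (−0.14 ± 0.08, limma, adjusted p = 0.226, and 0.0128 without siDHX9 3). FLI1 was at 128, 114 and 107 in DMSO and 126, 156 and 103 in siDHX9 libraries (0.12 ± 0.22, limma, adjusted p = 0.747). Both genes overlapped between the groups. Reads across the fusion junction are not separated in the table. Of 16 FET proteins and ETS factors, 1 rose, the ETS factor ETS2 (0.46), and 0 fell (edgeR 0 and 0, DESeq2 0 and 0). That is 6.25% of the list, against 8.3% of all genes, with a median of −0.097. Scrambled minus DMSO had 1 higher and 0 lower (median 0.15), and siDHX9 minus scrambled 0 higher and 3 lower (median −0.02). Of the list, 0 rose without DMSO 1, DMSO 2 or siDHX9 1, and 2 rose without siDHX9 2 or scrambled 2. Without siDHX9 3, 1 rose and 2 fell.

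Of 42 genes known as activated by EWS-FLI1, 7 rose and 8 fell (16.7% and 19.0%, median 0.01; edgeR 1 and 0, DESeq2 3 and 3). Against DMSO, scrambled had 2 higher and 11 lower, and siDHX9 minus scrambled had 8 higher and 2 lower. NR0B1, a nuclear receptor and a classical activated target, was at 6699, 7044 and 6999 in DMSO and 8259, 8085 and 8764 in siDHX9 libraries, a rise of 0.28 (limma, adjusted p = 0.0215) with no overlap. That adjusted p was 0.0514 to 0.0885 without DMSO 1, 2 or 3 or siDHX9 1 or 3. CCND1, cyclin D1, which overlaps ORAOV1, rose from 3699.8, 3511 and 3255 to 5940.4, 5728 and 6312 (0.78 ± 0.09, limma, adjusted p = 0.000101) and was as high in scrambled libraries, at 5363, 6477 and 5266. IGF1, insulin-like growth factor 1, fell from 416, 392 and 353 to 279, 222 and 169 (−0.82), with 261, 208 and 194 in scrambled libraries. CCK, the peptide hormone cholecystokinin, rose from 79.1, 91.4 and 73.2 to 112, 129 and 166 (0.72), and scrambled libraries were lower, at 72.1, 55.5 and 53.9. CCK was not called without DMSO 1, 2 or 3 or siDHX9 3. BCL11B, a transcription factor on the same list, stood at 3582, 3540.2 and 3585 in DMSO, 3099, 2534 and 3001 in scrambled and 5247, 4677 and 4977 in siDHX9 libraries (0.48). The counts were 3 and 2 without DMSO 1, 4 and 5 without DMSO 2, 5 and 3 without DMSO 3, 4 and 6 without siDHX9 1 and 3 and 4 without siDHX9 3, in the order of genes that rose and fell. Over the alternatives run, the median lay between −0.015 by edgeR and 0.043 without siDHX9 2.

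Of 24 genes known as repressed by EWS-FLI1, 7 rose and 0 fell (29.2% and 0%, median 0.25; edgeR 2 and 0, DESeq2 4 and 0). In scrambled minus DMSO 4 were higher and 3 lower (median 0.13), and 5 were higher and 1 lower in siDHX9 minus scrambled (median 0.2). The 7 are COL1A1, COL3A1, COL6A3, LUM, LOX, ZYX and ANXA1, of which several also stand on the matrix, mesenchyme or actin lists. COL6A3 is named only to complete the 7, and LUM, the proteoglycan lumican, was not called without DMSO 1, DMSO 2, siDHX9 1 or siDHX9 2. LOX, lysyl oxidase, which cross-links collagen, was at 134, 115 and 103 in DMSO, 166, 138 and 138 in scrambled and 286, 262 and 171 in siDHX9 libraries (1.00 ± 0.20, limma, adjusted p = 0.00535). LOX is on the activated list too. ANXA1, the membrane binding protein annexin A1, named after its values were seen, went from 10878, 10643 and 10428 to 14279, 16259 and 15609 (0.53), with 16684, 15883 and 15674 in scrambled libraries. Among the always reported genes, MYC was at 23137, 24807 and 26631 in DMSO and 31618, 26421 and 33737 in siDHX9 libraries (0.29, limma, adjusted p = 0.0311, and 0.0881 to 0.133 without DMSO 1, DMSO 2, siDHX9 1 or siDHX9 3). EZH2, the polycomb methyltransferase, was at 9293, 9436 and 9390.3 in DMSO and 9395, 10167 and 9662 in siDHX9 libraries (0.05 ± 0.06, limma, adjusted p = 0.583).

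**Figure D4:**
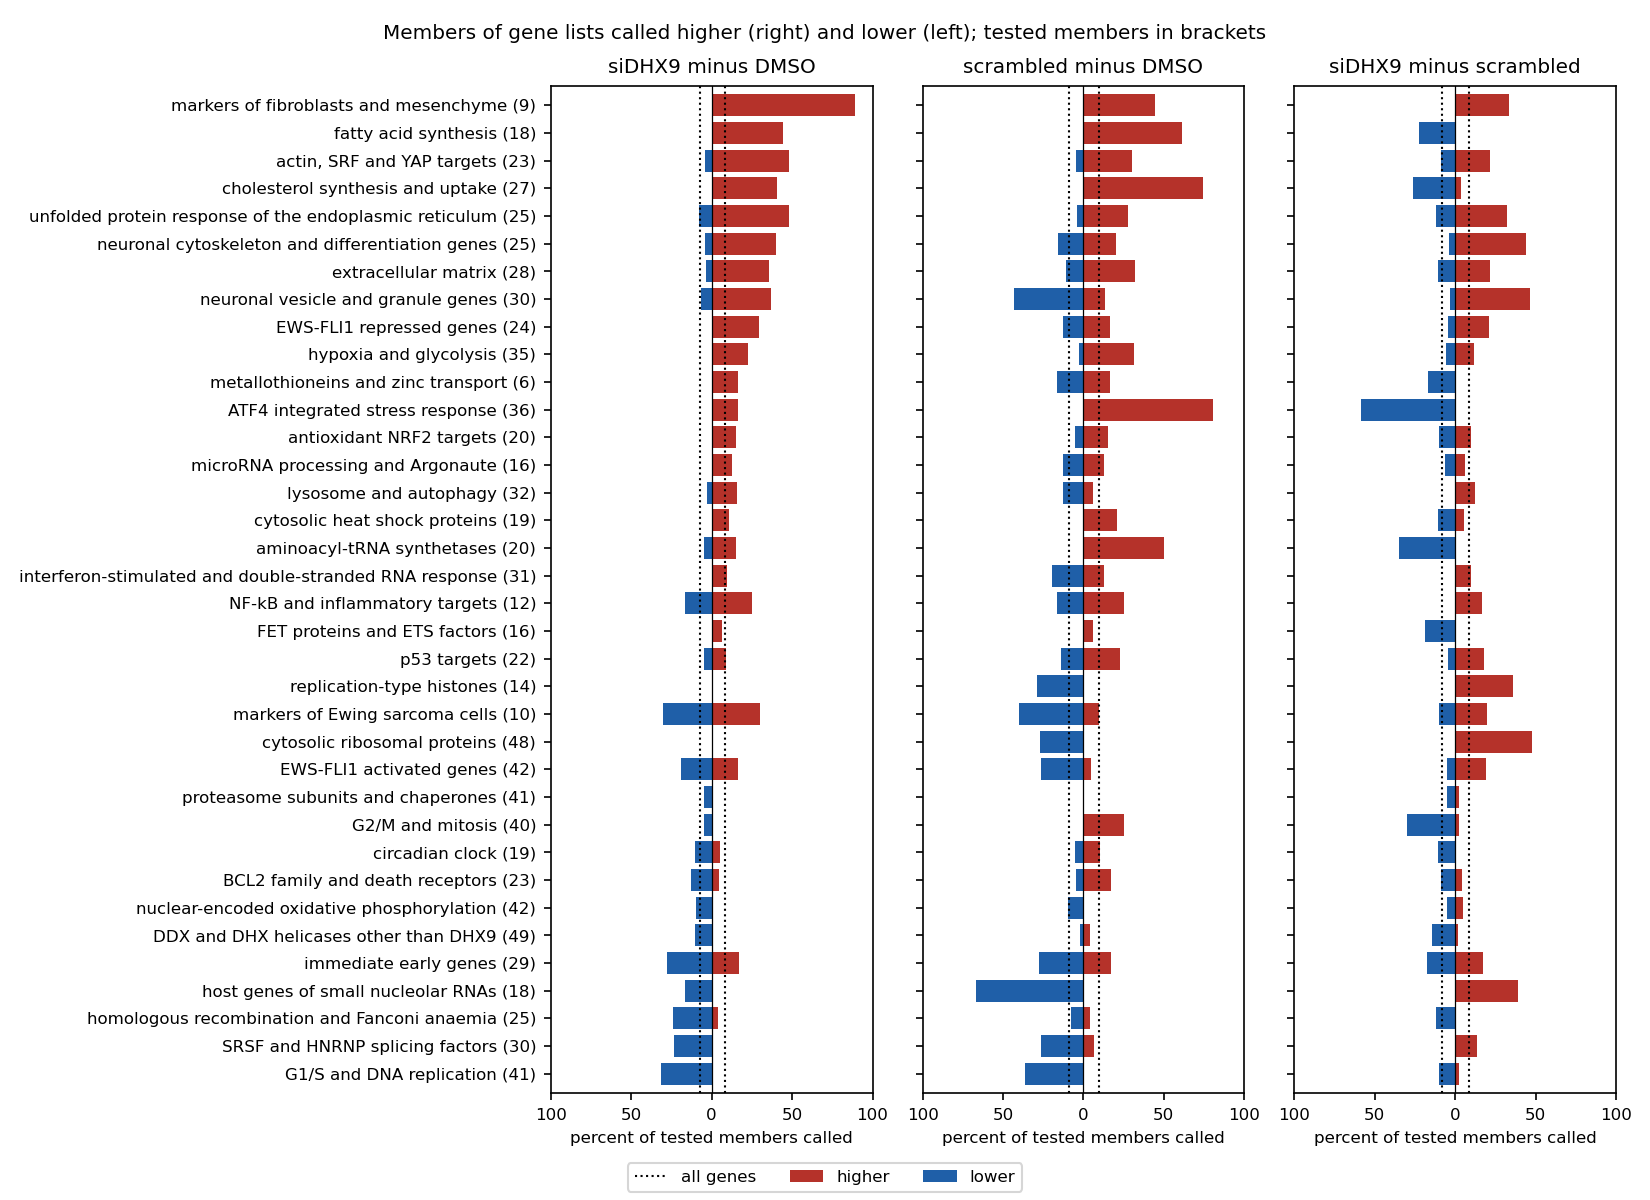
Percent of the tested members of each gene list with at least 6 of them called higher (red, to the right) and lower (blue, to the left) in siDHX9 minus DMSO, scrambled minus DMSO and siDHX9 minus scrambled, with the number tested in brackets and dotted lines for the percent of all genes. Neuronal vesicle genes lean to the right in siDHX9 and to the left in scrambled libraries against the same DMSO, and of 36 integrated stress response genes 6 are higher in siDHX9 and 29 in scrambled libraries.

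Genes of the integrated stress response, which ATF4 switches on when amino acids run short or unfolded protein builds up, differed between the 2 transfected groups in 21 of 36 tested members. Of 36 tested, 6 rose and 0 fell in siDHX9 minus DMSO (16.7% and 0%, median 0.27; edgeR 6 and 0, DESeq2 8 and 0), 29 were higher and 0 lower in scrambled minus DMSO (median 1.01), and 0 were higher and 21 lower in siDHX9 minus scrambled (median −0.76). The last of these tests the difference between the 2 transfected groups. By library the median of the list was 0.31, 0.2 and 0.37 in siDHX9 1, 2 and 3 and 1.23, 1.17 and 0.54 in scrambled 1, 2 and 3, so scrambled 3 stood between the other scrambled libraries and siDHX9. Without scrambled 3, 10 of the 36 rose in siDHX9.

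Promoters of the list are shown for the known binding element of ATF4. It was searched as TGATGNAAN, or NTTNCATCA on the other strand, from 250 bases before to 50 after the RefSeq gene start. It was in a promoter of 9 of the 28 genes of the list that had a RefSeq sequence (32.1%) and in 1264 of 34943 promoters (3.62%). The first share counts genes with a match in any of their promoters and the second counts single promoters, so they are not like measures. Those of 4 genes described here are printed 5′ to 3′ on the gene's strand, from RefSeq GRCh38.p14, with the match in capitals; a match is a description of letters, not a bound site. They are ATF3 (chr1:212565157-212565456, plus strand), SLC1A4 (chr2:64989149-64989448, plus), ASNS (chr7:97872359-97872658, minus) and CHAC1 (chr15:40953221-40953520, plus). The match began 191 bases before the start in ATF3, 8 in SLC1A4, 68 in ASNS and 210 in CHAC1.
ATF3: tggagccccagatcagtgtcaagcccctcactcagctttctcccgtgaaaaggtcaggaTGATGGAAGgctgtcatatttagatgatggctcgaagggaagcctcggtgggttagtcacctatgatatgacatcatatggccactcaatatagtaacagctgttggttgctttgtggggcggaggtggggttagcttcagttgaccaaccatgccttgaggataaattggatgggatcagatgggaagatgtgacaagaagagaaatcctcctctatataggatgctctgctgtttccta
SLC1A4: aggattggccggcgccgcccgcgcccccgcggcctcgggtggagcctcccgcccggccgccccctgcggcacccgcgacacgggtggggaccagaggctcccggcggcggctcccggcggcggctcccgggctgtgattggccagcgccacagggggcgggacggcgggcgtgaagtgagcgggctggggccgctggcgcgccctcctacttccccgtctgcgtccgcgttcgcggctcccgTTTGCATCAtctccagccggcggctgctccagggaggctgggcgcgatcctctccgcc
ASNS: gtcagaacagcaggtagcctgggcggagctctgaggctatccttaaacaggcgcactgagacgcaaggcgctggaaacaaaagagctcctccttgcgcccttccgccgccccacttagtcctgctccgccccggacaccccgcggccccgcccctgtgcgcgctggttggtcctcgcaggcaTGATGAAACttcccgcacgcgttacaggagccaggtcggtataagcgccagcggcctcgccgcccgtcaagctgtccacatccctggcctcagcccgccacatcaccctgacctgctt
CHAC1: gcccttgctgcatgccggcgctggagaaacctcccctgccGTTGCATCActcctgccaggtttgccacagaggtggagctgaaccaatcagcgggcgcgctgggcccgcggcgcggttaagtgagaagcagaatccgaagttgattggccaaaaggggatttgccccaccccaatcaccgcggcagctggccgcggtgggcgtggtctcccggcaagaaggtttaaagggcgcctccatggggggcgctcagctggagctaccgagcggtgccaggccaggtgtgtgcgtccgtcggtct

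SLC1A4, a carrier of serine and alanine, rose from 2967, 2865 and 3030.4 in DMSO to 4599.7, 4456 and 4674 in siDHX9 libraries (0.63 ± 0.10, limma, adjusted p = 0.000996), with 4450.5, 4327 and 3471 in scrambled libraries. PCK2, mitochondrial phosphoenolpyruvate carboxykinase, which overlaps NRL, rose from 446, 505 and 431 to 1127, 1067 and 999.7 (1.21 ± 0.28, limma, adjusted p = 0.0116), and scrambled 1, 2 and 3 held 2949, 2153 and 944. ATF3, a stress-induced repressor, stood at 17.2, 11.9 and 20.5 in DMSO, 39.3, 71.3 and 50.8 in siDHX9 and 366, 340.3 and 64.8 in scrambled libraries (1.63, limma, adjusted p = 0.042 for siDHX9). DDIT3, the death-promoting factor CHOP, which overlaps MARS, stood at 61.9, 77.5 and 64.2 in DMSO, 133, 143 and 129 in siDHX9 and 379, 319 and 129 in scrambled libraries (0.99, limma, adjusted p = 0.0416). In both genes siDHX9 lay above DMSO without overlap, but each fit without 1 DMSO or siDHX9 library put the adjusted p over the threshold, at 0.0609 to 0.137 for ATF3 and 0.0543 to 0.12 for DDIT3. ASNS, asparagine synthetase, counted in an entry with readthrough transcripts and chosen for its promoter, was at 8857, 8998 and 8987 in DMSO, 12143, 11176 and 11773 in siDHX9 and 29561, 23822 and 13425 in scrambled libraries (0.39 ± 0.19, limma, adjusted p = 0.191 for siDHX9, and 0.00632 without scrambled 3). CHAC1, which breaks down glutathione, chosen likewise, was at 131, 214 and 358 in DMSO, 566, 158 and 552 in siDHX9 and 5052, 8311 and 720.2 in scrambled libraries (0.76 ± 0.72, limma, adjusted p = 0.518). The DMSO values of CHAC1 spread widely and overlapped siDHX9 2.

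Of 20 aminoacyl-tRNA synthetases, which load amino acids onto tRNA, 3 rose and 1 fell (median 0.13, and 0.065 without siDHX9 3; edgeR 2 and 0, DESeq2 2 and 0). The counts were 10 and 0 in scrambled minus DMSO (median 0.24) and 0 and 7 in siDHX9 minus scrambled (median −0.17). SARS, for serine, went from 12759, 12643 and 12417 in DMSO to 17136, 17181 and 18816 in siDHX9 libraries (0.49 ± 0.08, limma, adjusted p = 0.0018), and scrambled libraries held 20796, 21404 and 16733. AARS, for alanine (0.44), and WARS, for tryptophan and overlapping WDR25 (0.33), rose and NARS, for asparagine (−0.22, not called without DMSO 1, 2 or 3, siDHX9 1 or 3 or scrambled 1), fell. The counts were 6 and 2 without siDHX9 2 and 5 and 1 without scrambled 3.

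The unfolded protein response of the endoplasmic reticulum had 12 of 25 genes up and 2 down (48% and 8%, median 0.23; edgeR 5 and 1, DESeq2 7 and 2). For this list 7 were higher and 1 lower in scrambled minus DMSO (median 0.04), and 8 higher and 3 lower in siDHX9 minus scrambled (median 0.15). HSPA5, the chaperone BiP, rose from 17680, 16279 and 15911 in DMSO to 22869, 26462 and 23380 in siDHX9 libraries (0.54 ± 0.09, limma, adjusted p = 0.00172), with 17513, 20541 and 22992 in scrambled libraries. SDF2L1, part of a BiP complex, rose from 3821, 4259 and 3973 to 6620.2, 5844 and 7467 (0.72), with 2999, 3484 and 4774 in scrambled libraries, so siDHX9 lay above both controls. SEC24D, a coat protein of vesicles leaving the reticulum, rose by 0.77. PDIA6, a disulfide isomerase, went against the list, from 25454, 24431 and 23471 in DMSO and 22811, 24045 and 23641 in scrambled to 13916, 14768 and 15192 in siDHX9 libraries (−0.74 ± 0.06, limma, adjusted p = 6.62e-06). PDIA6 and CANX, a lectin chaperone, were the 2 that fell.

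Part of the lipid synthesis genes rose in siDHX9 and in scrambled libraries. Of 27 genes of cholesterol synthesis and uptake, 11 rose (40.7%) and 0 fell in siDHX9 minus DMSO (median 0.37, and 7 rose without DMSO 1; edgeR 2 and 0, DESeq2 6 and 0). Scrambled minus DMSO had 20 higher and 0 lower (median 0.53), and siDHX9 minus scrambled 1 higher and 7 lower (median −0.2). ACAT2, acetyl-CoA acetyltransferase at the head of the pathway, which overlaps TCP1, rose from 21140, 20431 and 20524 in DMSO to 28810, 30046 and 31509 in siDHX9 libraries (0.54 ± 0.06, limma, adjusted p = 8.39e-05), and scrambled libraries held 31095, 32671 and 32894. MVK, mevalonate kinase, rose by 0.55 and LSS, lanosterol synthase, by 0.49. MVD, the decarboxylase of the same branch, was at 1940.5, 2322 and 2568 in DMSO and 4103, 2714 and 4723 in siDHX9 libraries (0.73, limma, adjusted p = 0.0102, and 0.0517 without DMSO 1).

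Of 18 genes of fatty acid synthesis, 8 rose and 0 fell (44.4% and 0%, median 0.28; edgeR 5 and 0, DESeq2 6 and 0). The same counts were 11 and 0 in scrambled minus DMSO (median 0.45) and 0 and 4 in siDHX9 minus scrambled (median −0.21). SCD, the desaturase that makes oleate, stood at 909, 872 and 756 in DMSO, 2316, 3059 and 1888 in scrambled and 1827, 1800.2 and 1399.6 in siDHX9 libraries (0.98 ± 0.16, limma, adjusted p = 0.00133). SREBF1, the transcription factor of these genes, overlapping RAI1, rose from 1760.0, 2043 and 1786 to 3063, 2810.1 and 3161 (0.69 ± 0.09, limma, adjusted p = 0.000272), with 2892, 2459 and 2511 in scrambled libraries. ACSS2, which makes acetyl-CoA from acetate and overlaps GGT7 (0.60), and FADS2, a desaturase whose gene overlaps FADS1 (0.59), rose too. The sterol element TCACNCCAC, or GTGGNGTGA on the other strand, was in a promoter of 1 of 20 genes of the cholesterol list (5%) and 2 of 17 of the fatty acid list (11.8%). Counted by promoter and not by gene, it was in 392 of 34943 (1.12%).

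**Figure D5:**
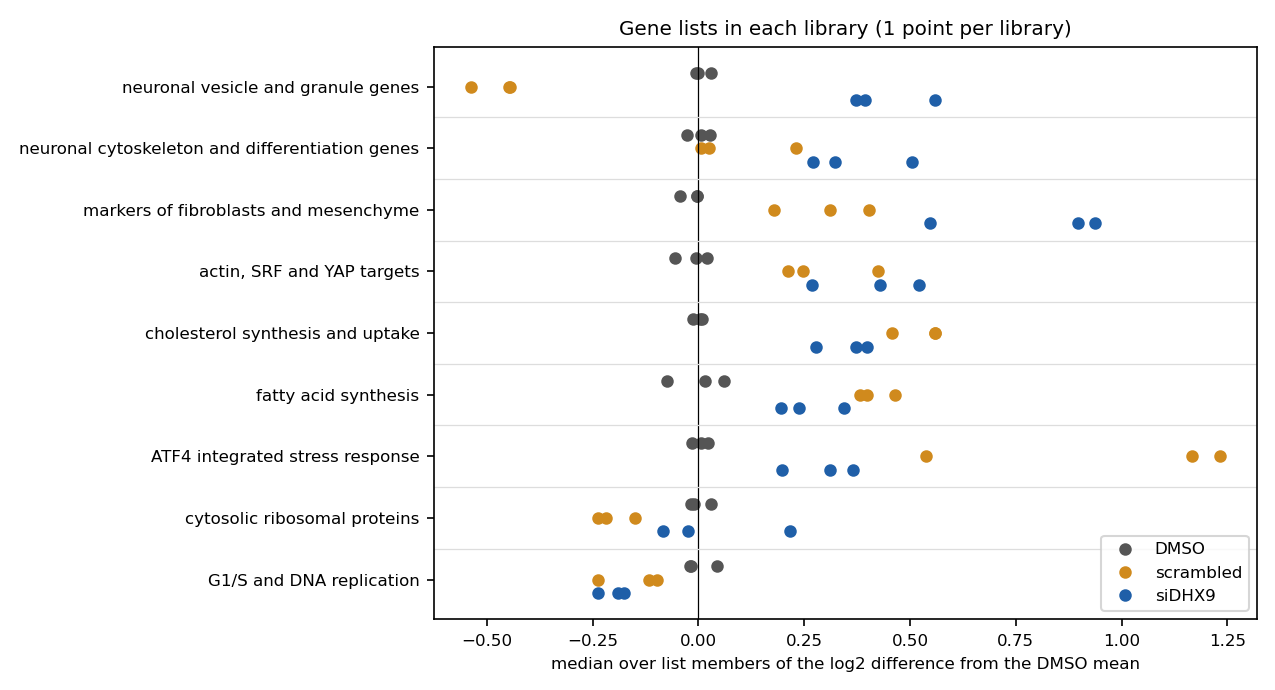
Median over the members of 9 gene lists of the log2 difference from the DMSO mean (horizontal axis), 1 point per library and 1 row per list, grey for DMSO, orange for scrambled and blue for siDHX9. The siDHX9 points of the neuronal vesicle list lie at 0.37 to 0.56 and the scrambled points at −0.54 to −0.44, and the scrambled points of the stress response list spread from 0.54 to 1.23.

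Part of the DNA replication genes fell in siDHX9 and in scrambled libraries. Of 41 G1/S and replication genes, 0 rose and 13 fell (0% and 31.7%, median −0.2; edgeR 0 and 4, DESeq2 0 and 8). These counts were 0 and 15 in scrambled minus DMSO (median −0.15) and 1 and 4 in siDHX9 minus scrambled (median −0.06). The count that fell was 8 without DMSO 1 or DMSO 3. PCNA, the sliding clamp of DNA polymerase, fell from 21906, 22008 and 21220 in DMSO to 11272, 11903 and 12870 in siDHX9 libraries (−0.86 ± 0.08, limma, adjusted p = 2.08e-05), with 15489, 16112 and 19076 in scrambled libraries, between the other groups and apart from both. CCNE2, cyclin E2, overlapping INTS8, fell from 1291, 1092 and 1057 to 559, 822 and 497 (−0.90), with 526, 645 and 841 in scrambled libraries. E2F8, a repressor of the E2F family (−0.66), and POLE2, a subunit of the leading strand polymerase that overlaps RPS29 (−0.52), fell as well.

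Of 40 G2/M and mitosis genes, 0 rose and 2 fell, 5% against 7.33% of all genes (median −0.09, and −0.14 without siDHX9 2; edgeR 0 and 1, DESeq2 0 and 0). Of the same genes, 10 were higher and 0 lower in scrambled minus DMSO (median 0.18) and 1 was higher and 12 lower in siDHX9 minus scrambled (median −0.25). TPX2, a spindle factor, was at 21274, 20475 and 20702 in DMSO, 23808, 25332 and 21983 in scrambled and 16665, 16524 and 17630 in siDHX9 libraries (−0.30 ± 0.07, limma, adjusted p = 0.00805). CCNB2, cyclin B2, followed the same order with 6665, 6805 and 6759 in DMSO, 8147, 8013 and 7552 in scrambled and 5799, 5649 and 5878 in siDHX9 libraries (−0.22, not called without DMSO 1, 2 or 3 or siDHX9 1). Scrambled lay above and siDHX9 below DMSO in both. The counts were 0 and 6 with TMM scaling, 4 and 10 without siDHX9 2, 1 and 4 without scrambled 2, 1 and 3 without scrambled 3, 0 and 3 without siDHX9 3 and 0 and 1 without DMSO 1, 2 or 3 or siDHX9 1. Of 25 genes of homologous recombination and the Fanconi pathway, 1 rose and 6 fell (median −0.22, and −0.14 without siDHX9 3; edgeR 0 and 0, DESeq2 0 and 1). The number that fell was 1 without DMSO 1, 2 without DMSO 2 or siDHX9 1, 4 without DMSO 3 or siDHX9 3 and 12 without siDHX9 2. BRCA2, a mediator of homologous recombination, went from 2205, 2039.7 and 1952 to 1434, 1677 and 1168 (−0.55), with 1689.7, 1683 and 1570.2 in scrambled libraries. CDKN1A, the p53 target p21, was at 1042, 1237 and 1084 in DMSO and 1518, 924 and 1586 in siDHX9 libraries (0.22 ± 0.17, limma, adjusted p = 0.4). Without siDHX9 2, the lowest of the 6, that adjusted p was 0.00865. Of 22 p53 targets, 2 rose (9.09%) and 1 fell (4.55%), near the 8.3% and 7.33% of all genes (edgeR 0 and 0, DESeq2 0 and 0). These were 0 and 0 without DMSO 1, 2 or 3 or siDHX9 3, 0 and 1 without siDHX9 1, 4 and 2 without siDHX9 2, 3 and 2 without scrambled 2, 3 and 3 without scrambled 3, and 1 and 1 without scrambled 1.

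Immediate early genes, which respond to growth signals within minutes, split in direction, with 5 of 29 up and 8 down (median −0.03; edgeR 2 and 5, DESeq2 3 and 5) and 5 up and 8 down in scrambled minus DMSO as well. Besides FOS, EGR4, a zinc finger factor, fell from 41.8, 41.7 and 46.2 in DMSO to 18.6, 7.32 and 10.8 in siDHX9 libraries (−1.83), with 10.8, 9.25 and 18.0 in scrambled libraries. KLF10, an early target of transforming growth factor beta, named after its values were seen, fell from 610.3, 623 and 532 to 254, 295 and 318 (−1.02), with 208, 322 and 335 in scrambled libraries. The median of the list was 0.053 with a minimum mean of 50, 0.044 without siDHX9 2 and 0.023 by edgeR and by DESeq2, so its sign turned in these fits. The counts were 1 and 4 without DMSO 1, 2 and 4 without DMSO 2, 1 and 5 without siDHX9 1 and 2 and 6 without siDHX9 3. Of 19 clock genes, 1 rose (5.26%) and 2 fell (10.5%), against 8.3% and 7.33% of all genes (edgeR 1 and 2, DESeq2 1 and 2). PER1 rose from 298, 254 and 222 to 517, 482 and 541 (1.00 ± 0.12, limma, adjusted p = 0.000194), and NR1D2, a repressor of the clock loop that overlaps NKIRAS1, fell from 403, 409 and 363 to 194, 213 and 188 (−0.98). Scrambled libraries held 434, 450.4 and 412 PER1 and 191, 190.5 and 201 NR1D2 counts. PER3, a further period gene, went from 644, 704 and 673 in DMSO and 509, 603 and 688 in scrambled to 469.7, 402 and 346 in siDHX9 libraries (−0.74 and −0.56 against the 2 controls).

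Of 30 SRSF and HNRNP splicing factors, 0 rose and 7 fell (median −0.07, and −0.11 by edgeR and by DESeq2; edgeR 0 and 2, DESeq2 0 and 4). Those 7 are 23.3% of the list, against 7.33% of all genes, and 4 fell without DMSO 1 or siDHX9 1. Scrambled minus DMSO had 2 higher and 8 lower (median −0.07), and siDHX9 minus scrambled 4 higher and 0 lower (median −0.03). SRSF3 fell from 54396, 52709 and 52916 in DMSO to 37320, 34832 and 32833 in siDHX9 libraries (−0.61 ± 0.09, limma, adjusted p = 0.000637), with 32627, 33436 and 42551 in scrambled libraries, and SRSF6, another serine-arginine factor, by −0.34 (not called without DMSO 1, 2 or 3 or siDHX9 1). Of 35 hypoxia and glycolysis genes, 8 rose and 0 fell (median 0.16; edgeR 5 and 0, DESeq2 7 and 0), beside 11 and 1 in scrambled minus DMSO. ALDOC, aldolase C, which overlaps SPAG5, rose from 247, 306 and 266 to 533, 406 and 504 (0.81), with 358, 366 and 356 in scrambled libraries, and SLC2A3, a glucose carrier of neurons, rose by 0.68. Of 42 nuclear genes of oxidative phosphorylation, 0 rose and 4 fell, 9.52% against 7.33% of all genes (edgeR 0 and 2, DESeq2 0 and 3; 2 fell without DMSO 1, 2 or 3 or siDHX9 1, and 7 rose without siDHX9 2). NDUFS1, a core subunit of complex I, was at 7966, 7689 and 7311 in DMSO, 8397, 8969 and 8708 in scrambled and 4998, 5446 and 5313 in siDHX9 libraries (−0.54 ± 0.06, limma, adjusted p = 0.000151), below both controls.

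Double-stranded RNA is a substrate of DHX9, and genes of the interferon and double-stranded RNA response were examined for that reason. Of 31 tested, 3 rose and 0 fell (9.68% against 8.3% of all genes; edgeR 2 and 0, DESeq2 2 and 0), with 6 and 0 without siDHX9 2 and 2 and 3 without siDHX9 3. Scrambled minus DMSO had 4 higher and 6 lower (median 0.09), and siDHX9 minus scrambled 3 higher and 0 lower (median 0.17). Of all genes, 9.7% and 9.22% were higher and lower in the former, and 8.75% and 7.97% in the latter. The median of the list was 0.05 over the 12 libraries, 0.15 with a minimum mean of 50, 0.23 by edgeR and by DESeq2, and from 0.13 without siDHX9 2 to 0.23 without DMSO 2 in the fits without 1 DMSO or siDHX9 library. The 3 were IFIT2, IFIT1 and OASL, of which OASL, an interferon-induced relative of RNA sensors, was called in no fit without 1 library except that without DMSO 3. IFIT1, which binds uncapped RNA and overlaps LIPA, rose from 318, 356 and 272 to 544, 562 and 606 (0.86), and scrambled libraries were as high, at 672, 645 and 578. Of 12 NF-kB targets, 3 rose and 2 fell (edgeR 1 and 1, DESeq2 1 and 1; 1 and 1 without DMSO 3, 2 and 1 without DMSO 1 or 2). NFKB2, a subunit of NF-kB, rose from 485, 581 and 547 to 1138, 903 and 1215 (1.00) and NFKBIA, its inhibitor, fell from 1578, 1476 and 1502 to 725, 745 and 1052 (−0.87), while scrambled minus DMSO gave 0.77 and −1.17.

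Ribosomal protein genes show a case with 0 calls against DMSO. Of 48 cytosolic ribosomal protein genes, limma called 0 in siDHX9 minus DMSO at an adjusted p under 0.05 (1 at an unadjusted p under 0.05, 0 by edgeR and 0 by DESeq2; median 0.03, −0.01 after quantile normalisation and −0.053 without siDHX9 3), 0 higher and 13 lower in scrambled minus DMSO (median −0.2), and 23 higher and 0 lower in siDHX9 minus scrambled (median 0.26). RPLP0, a stalk protein of the large subunit, was at 284660, 298050 and 287670 in DMSO, 255570, 259880 and 255320 in scrambled and 298960, 292610 and 348420 in siDHX9 libraries (0.11 ± 0.07 against DMSO, limma, adjusted p = 0.339). RPLP0 in scrambled lay below both other groups. The median of the list was −0.03, −0.08 and 0.22 in siDHX9 1, 2 and 3, so siDHX9 3 stood apart, and without siDHX9 2 the count was 3 higher. Of 18 host genes of small nucleolar RNAs, which share the growth-regulated start of ribosomal protein genes, 0 rose and 3 fell (edgeR 0 and 0, DESeq2 0 and 0; 0 fell without DMSO 2 or 3, 1 without DMSO 1, siDHX9 1 or siDHX9 3), beside 0 and 12 in scrambled minus DMSO. Of 14 replication-type histone genes limma called 0 (3 at an unadjusted p under 0.05, 0 by edgeR and 0 by DESeq2), beside 0 and 4 in scrambled minus DMSO and 5 and 0 in siDHX9 minus scrambled. Without siDHX9 2, 1 histone gene was higher than in DMSO.

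The remaining lists are given by their counts, to be read against 8.3% of all genes that rose and 7.33% that fell. Of 32 lysosome and autophagy genes, 5 rose (15.6%) and 1 fell (edgeR 0 and 0, DESeq2 0 and 1). The lysosome counts were 0 and 1 without DMSO 1, DMSO 2 or siDHX9 1, 2 and 1 without DMSO 3, 1 and 2 without siDHX9 3, and 3 and 1 without scrambled 1 or scrambled 3. GABARAP, an autophagosome protein, was the one that fell, from 10781, 11866 and 11410 to 7250.2, 5052 and 8738 (−0.73). Of 19 cytosolic heat shock genes, 2 rose (10.5%; edgeR 2 and 0, DESeq2 2 and 0), DNAJB1, a cochaperone of HSP70 (0.72), and BAG3, a factor of chaperone-assisted autophagy (0.91). The count was 4 without siDHX9 2 and 5 without scrambled 3 or after quantile normalisation. Of 20 antioxidant NRF2 targets, 3 rose (15%) and 0 fell (edgeR 0 and 0, DESeq2 2 and 0; 8 and 0 without siDHX9 2, 6 and 0 after quantile normalisation). Among them FTH1, the ferritin heavy chain, which overlaps BEST1, was at 90037, 95229 and 103600 in DMSO and 143840, 114950 and 172320 in siDHX9 libraries (0.56). Of 23 genes of the BCL2 family and death receptors, 1 rose and 3 fell (13.04%; edgeR 0 and 3, DESeq2 0 and 3; 3 and 4 without siDHX9 2, 0 and 2 without DMSO 1 or siDHX9 3). HRK, a BH3-only activator of cell death in neurons, fell from 196, 204 and 166 to 86.9, 100.6 and 84.3 (−1.05). Of 16 microRNA processing genes 2 rose (12.5%) and 0 fell (edgeR 0 and 0, DESeq2 0 and 0; 0 rose without DMSO 1, DMSO 2, siDHX9 1 or siDHX9 3, and 1 without DMSO 3). Of 6 metallothionein and zinc transport genes 1 rose (16.7%) and 0 fell (edgeR 0 and 0, DESeq2 0 and 0; 0 rose without DMSO 1 or siDHX9 3). Of 10 Ewing sarcoma markers 3 rose (30%) and 3 fell (30%; edgeR 1 and 0, DESeq2 2 and 0; 2 and 1 without DMSO 1, 2 or 3 or siDHX9 1). Markers of other cell types were called in 1 of 4 epithelial genes, KRT18, a keratin whose gene overlaps KRT8 (0.49, and 0 of 4 without DMSO 1, DMSO 2 or siDHX9 3), and in 0 of 3 blood and 0 of 1 endothelial genes.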

How the data were processed

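RNA-seq was deposited for 12 libraries of TC-71 cells in 4 groups of 3. The deposited table gives the signal per gene entry as read counts divided by a size factor; per the submitters' processing notes, FastQC, Picard, SAMtools, STAR 2.4.0 and DESeq were used with hg19, and the sources used here do not give the strand setting of the counting. Rows entered the tests if they had a symbol and averaged at least 10 across the 12 libraries, and rows without one were left out of the tests and totals reported per gene. log2(value + 1) was fitted with limma 3.58.1 in R 4.3.3 as group means in a single model of the 12 libraries (8 residual degrees of freedom) and a mean-variance trend, and p-values were adjusted by Benjamini-Hochberg over 14225 genes. These differences on log2(value + 1) understate the change of low genes. No count test was the main test because the deposited values are not counts. Whole reads recovered from the steps between values were accepted in 8 of the 12 libraries. edgeR 4.0.16 and DESeq2 1.42.0 were run on those 8 only, where 99.996 to 100% of values came out whole within 0.1 of a read. In the other 4, DMSO 2, scrambled 3 and YK-4-279 2 and 3, 100% came out whole too. Their step for 1 read, 0.993 to 1.007, was too near 1 for the unit to be accepted. Depths of those 4 are estimates.

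The members and gene lists were chosen with earlier results of these data known. Genes named are protein-coding, called, with a group mean of at least 100 and no overlap with DMSO: the 10 largest rises and falls; the 5 each way also called against scrambled with the largest smaller difference; the 5 each way also called in scrambled minus DMSO and within 0.25 of scrambled. Added to them are up to 4 called members of each list (up to 2 by level where none was called), 8 genes given in any case, the 5 most like DHX9, and those said in the text to be chosen after their values were seen. Of the genes this rule names, 1 is not reported here. Some list symbols, among them JUN, JUNB and SOX2, are not analysed here. The fit was checked on simulated data. Alternatives were other added values, minimums, normalisations, a replicate block and leaving out each library. Promoters are 300 bases from RefSeq GRCh38.p14 and share no coordinates with the hg19 table.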

Additional observations from a re-analysis of the deposited data

Results flagged for a closer look

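Rows without a gene symbol are outside the comparisons above. Of 3172 such rows at a mean of at least 10, 260 passed an adjusted p of 0.05 in limma for siDHX9 minus DMSO, 74 higher and 186 lower in siDHX9. In scrambled minus DMSO 59 were higher and 238 lower, and in siDHX9 minus scrambled 169 were higher and 146 lower. These comparisons share libraries. What these rows hold was not examined, and they draw notice because they carry signal in data that the comparisons by gene do not use.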

How the results depend on the processing

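The differences of named genes against DMSO gave 2573 values over 22 alternatives that kept direction and call, 167 that kept the direction but missed an adjusted p of 0.05, 5 that newly passed it and 1 with the other sign, FLI1 at −0.0244 without siDHX9 2, the lowest of its values without 1 library, which reached 0.27 without siDHX9 3. Of 118 called genes, 80 kept the call in all 22. The number of genes called in siDHX9 minus DMSO was 357 with a log2 difference of at least 1, and 639 by edgeR and 1052 by DESeq2 on 8 libraries. Leaving out 1 library gave 1231 to 3300. In siDHX9 minus scrambled it was 492 with the 6 libraries of the comparison alone, 367 with a log2 difference of at least 1, 962 by edgeR, 469 without scrambled 1 and 2 together, and 1244 to 4255 without 1 library. In scrambled minus DMSO it was 443 with a log2 difference of at least 1, 1062 by edgeR, 1583 by DESeq2, 339 without scrambled 1 and 2 together, and 1431 to 3485 without 1 library. The cause of these moves was not tested, apart from the fewer libraries or the larger difference asked for. The fits on 8 libraries and those without scrambled 1 and 2 together were chosen after seeing the data. The planned count tests on all 12 libraries were not kept, since whole reads were accepted in 8 only. TMM scaling turned the median of EWS-FLI1 activated genes to −0.01. The labels number the replicates, but the residuals of DMSO and siDHX9 libraries with the same number correlated at −0.10, −0.05 and 0.12, so the numbers were not taken as pairs. With a replicate block the counts were 1849, 2118 and 2430 for the 3 comparisons, and DHX9 kept −0.75 (limma, adjusted p = 0.000118). With 3 libraries a group the spread between libraries is estimated from few values, and depth limits genes near the minimum mean of 10. Leaving out single libraries was run for the gene lists in siDHX9 minus DMSO, and not for their counts in the other comparisons.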
